A study of Mus musculus with 12 samples.

Results

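Endothelial cell genes were followed across 12 two-colour arrays of cortical neurospheres, to ask whether RNA of vascular cells was still measured in the spheres. The 10 members were chosen by name as marker genes of blood vessel endothelium (Pecam1, Cdh5, Kdr, Tek, Tie1, Flt1, Cldn5, Esam, Emcn and Eng), out of 15081 genes with a symbol of their own on the array. Each had 1 probe among the 21738 probes of the table. Neurospheres are balls of neural precursors grown in suspension, here derived from the cortex of mouse embryos at gestational day 12.5 and kept without serum, with EGF, LIF and basic FGF. The 4 groups of 3 arrays were prominin cultures at 108 h, control cultures at 108 h, prominin cultures at 24 h and control cultures at 24 h. Prominin cultures had been given an adenovirus that carries CD133/R-prominin1, a glycoprotein of membrane protrusions, and controls had growth medium alone. The controls therefore lack the virus as well as the transgene, and both act together in every comparison of prominin with control. The design text also speaks of neurospheres positive for GFP, and the prominin samples titled 24 h have 108 h in their treatment field, so times were taken from the titles. The labels name no strain for the spheres. Nothing in them tells if the 3 replicates of a group were grown apart, so p-values cover the spread among arrays of a group, which may be technical.

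Endothelial cells line blood vessels and are held together by the cadherin of Cdh5 and the adhesion molecules of Pecam1 and Esam, and in the brain also by the tight junction claudin of Cldn5. They take up growth signals through receptor tyrosine kinases: VEGF binds the receptors encoded by Kdr and Flt1, and angiopoietins bind that of Tek, whose partner Tie1 has no well-established ligand of its own. Vessels grow into the embryonic cortex from the plexus that covers it, so a dissected cortex holds endothelial cells. The medium of the spheres holds mitogens of neural progenitors, and whether it sustains endothelial cells was not tested. Several members are not exclusive to vessels: Pecam1, Tek, Kdr, Eng and Esam are also expressed by blood cells or platelets.

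The promoters of 3 members are shown because Kdr and Flt1 encode sister receptors for VEGF whose ratios differed, and Emcn, a sialomucin of veins and capillaries, was low like Kdr. Each runs from 250 bases before to 50 after the start of the gene, 5′ to 3′ on the gene's strand, from RefSeq (GRCm38.p6), where 7 of the 10 members were matched. Kdr lies at chr5:75978406-75978705 on the minus strand, Flt1 at chr5:147725962-147726261 on the minus strand and Emcn at chr3:137340828-137341127 on the plus strand. Capitals mark AGGAAG, a word that holds the core bound by ETS factors, GGGCGG, the GC box word, and TATAAA, each on either strand.
Kdr: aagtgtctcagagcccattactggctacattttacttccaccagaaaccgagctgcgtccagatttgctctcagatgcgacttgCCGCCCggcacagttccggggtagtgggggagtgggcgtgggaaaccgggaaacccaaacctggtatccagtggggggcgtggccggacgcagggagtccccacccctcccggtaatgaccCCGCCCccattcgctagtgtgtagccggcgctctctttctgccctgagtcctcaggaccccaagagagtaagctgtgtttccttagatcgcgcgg
Flt1: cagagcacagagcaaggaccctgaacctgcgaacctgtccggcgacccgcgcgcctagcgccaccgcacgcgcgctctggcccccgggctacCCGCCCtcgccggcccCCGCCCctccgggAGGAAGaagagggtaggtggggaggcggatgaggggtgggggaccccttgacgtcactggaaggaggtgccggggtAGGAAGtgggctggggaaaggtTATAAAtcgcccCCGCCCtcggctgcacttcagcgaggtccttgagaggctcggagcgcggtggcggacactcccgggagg
Emcn: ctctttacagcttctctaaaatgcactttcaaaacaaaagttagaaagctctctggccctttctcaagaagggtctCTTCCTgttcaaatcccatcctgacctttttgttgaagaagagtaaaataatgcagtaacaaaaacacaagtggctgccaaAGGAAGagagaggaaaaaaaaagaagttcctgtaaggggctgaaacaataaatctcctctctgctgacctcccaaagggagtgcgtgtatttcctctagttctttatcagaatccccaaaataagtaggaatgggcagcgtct
The word AGGAAG occurred at 2 places in Flt1, 2 in Emcn and 0 in Kdr, and in 4 of the 7 member promoters, against 35.4% of all 32851 promoters of that length. GGGCGG occurred at 3 places in Flt1, 2 in Kdr and 0 in Emcn (3 of 7 members, against 35.7%), and TATAAA at 1 place in Flt1 only among the 7 (1 of 7, against 13.6%). They are matches of letters and not sites of binding.

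All values are log2 ratios of neurosphere RNA (Cy5) to a shared embryo RNA (Cy3), made from entire C57/Bl6 embryos at gestational day 12, in which vessels are also present. A value relative to the median probe has had the array's own median taken off, over the 4532 probes measured on all 12 arrays. Which channel is on top is not stated. The ratio was read as sphere over embryo, since all tested erythroid and fibroblast genes then lie low and 8 of 15 neural stem genes high (4 lay low), and the dyes were not swapped. The array medians before centring were −2.59 to −0.84, so the deposited ratio of the median probe was below 0 on every array. Values given against the embryo reference are such deposited ratios, without centring. The scaling of spots is not given and the dyes were not swapped, so they may not measure RNA levels relative to the embryo. Centring takes 1 number off each array, so a dye bias of a single probe would stay in the centred values as well. The p-values of the levels measure the spread among arrays and do not cover such a bias. Exact zeros and the top code, 1 highest value that many cells share, were taken as missing. They left 47.9 to 76.4% of probes measured per array, with more at 108 h. On the 24 h arrays 31.6 to 56.0% of measured values were ratios of 2 whole numbers of at most 10, which very dim spots give, against 3.3 to 9.62% on the 108 h arrays. Spot brightness was not used here, so the signal of a member over background is unknown, and in such bulk RNA fewer cells of a type and less RNA per cell cannot be told apart.

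Of the 10 endothelial genes 8 had a mean ratio below the median probe, and Flt1 and Tie1 had one above it. Of 120 member values 87 were measured, 33 were listed at exact 0 (27.5%, against 28.3% of all probes) and 0 at the top code. The junction, surface and adhesion genes Pecam1, Cdh5, Cldn5 and Eng, together with Kdr and Tek, were below the median probe on every array that measured them. The per-array median of the measured members averaged −2.15 ± 1.11 (SD, n = 12 arrays) and lay between −4.33 and 0.46. It was positive only on control 24 h replicate 1, the array with the fewest measured probes. By group it was −2.46 ± 0.24 in prominin cultures at 108 h, −3.11 ± 1.05 in controls at 108 h, −1.70 ± 0.61 in prominin cultures at 24 h and −1.32 ± 1.55 in controls at 24 h (SD, n = 3 each).

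**Figure D1:**
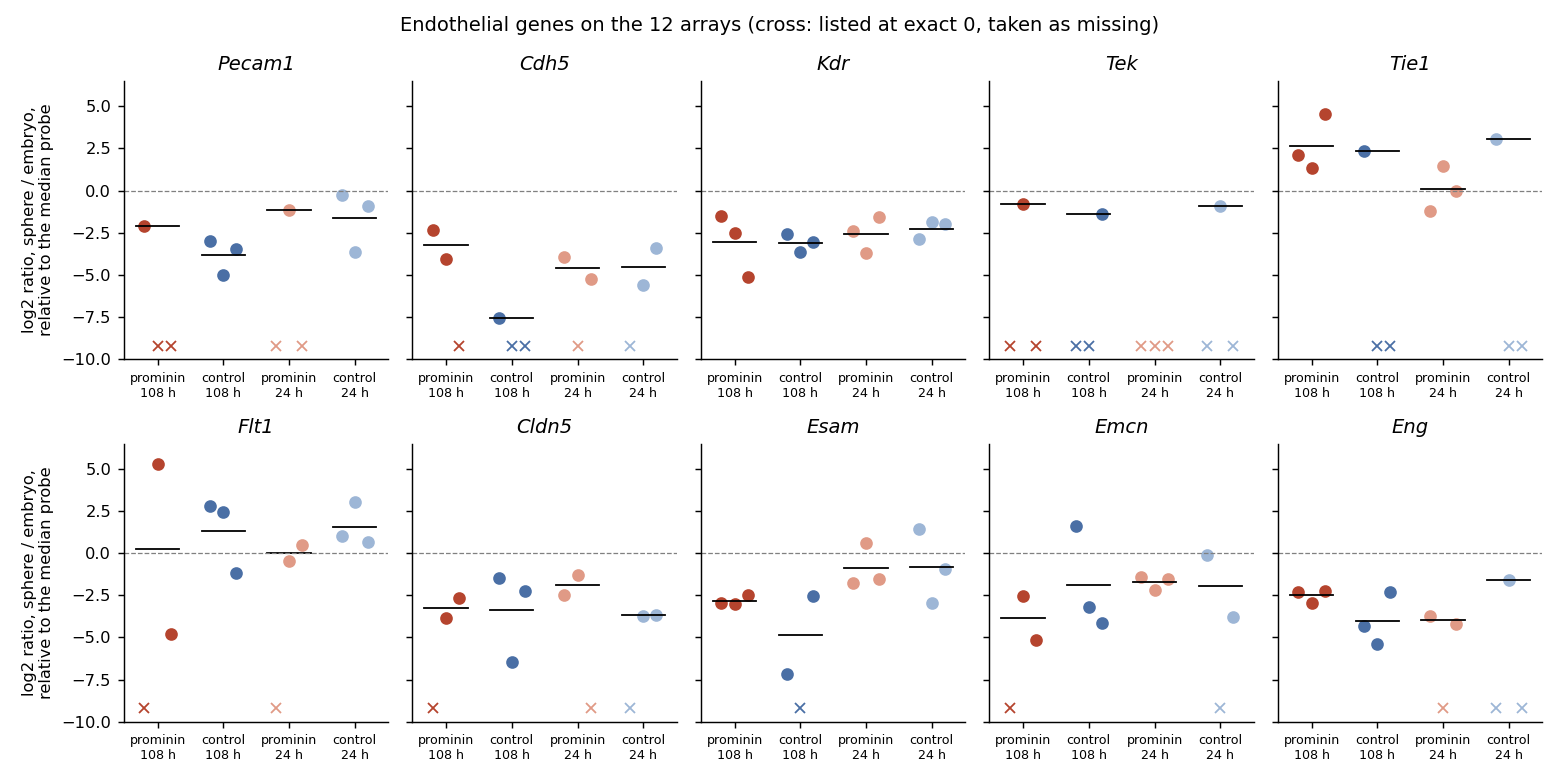
Each panel shows 1 endothelial gene, with the log2 ratio of sphere to embryo RNA relative to the median probe (dashed line at 0) on the vertical axis and the 4 groups on the horizontal axis. Circles are arrays, lines are group means and crosses are arrays that list the gene at exact 0, placed at the bottom without a value. Kdr was measured on 12 arrays, all below 0, and Tek on 3.

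Among the VEGF receptors, Kdr, the main signalling receptor of endothelial cells, was the single member measured on all 12 arrays. It lay at −1.497, −2.49 and −5.14 in prominin cultures, against −2.60, −3.63 and −3.08 in controls at 108 h, and at −2.38, −3.71 and −1.60 in prominin cultures, against −2.89, −1.88 and −2.01 in controls at 24 h. All 12 values were below the median probe, and the 4 groups overlapped. The mean over the groups was −2.74 (SE 0.32, 95% interval −3.44 to −2.04, limma adjusted p = 2.99e-05), a ratio 6.69-fold below that of the median probe. Of the tested probes 6.07% were lower still. Against the embryo reference itself, without centring, Kdr averaged −4.34 ± 1.17 (SD, n = 12 arrays).

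Flt1, a VEGF receptor that also exists as a soluble trap for the ligand, behaved otherwise. It lay at 5.27 and −4.79 in prominin cultures, against 2.79, 2.43 and −1.19 in controls at 108 h, and at −0.45 and 0.50 in prominin cultures, against 1.04, 3.02 and 0.66 in controls at 24 h. The 2 measured prominin arrays at 108 h held both the highest and the lowest of its 10 values. Its mean over the groups was 0.80 (SE 0.87, 95% interval −1.15 to 2.74, limma adjusted p = 0.451), and 6 of its 10 values, all 5 of the 24 h ones among them, were ratios of small whole numbers. Whether dim spots set its place was not tested. Against the embryo reference it averaged −0.59 ± 2.90 (SD, n = 10).

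The angiopoietin receptor pair was measured less completely. Tek, the angiopoietin receptor, had a value on 3 arrays: −0.79 in a prominin and −1.36 in a control culture at 108 h, and −0.92 in a control culture at 24 h. The remaining 9 arrays listed it at exact 0, among them all 3 prominin arrays at 24 h. Tie1, its partner, lay at 2.09, 1.33 and 4.57 in prominin cultures, against 2.34 in a control at 108 h, and at −1.21, 1.44 and −0.01 in prominin cultures, against 3.04 in a control at 24 h. Of its 8 values 6 were above the median probe, 3 of the 4 at 24 h were ratios of small whole numbers, and the mean against the embryo reference was 0.0048 ± 1.48 (SD, n = 8). Among the members Tie1 thus had the deposited mean nearest to 0, but its single deposited values ran from −2.585 to 2.248. Neither gene had 2 values in every group, so neither was tested.

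Cdh5 was the lowest of the set and the other junction genes were low as well. Cdh5, the endothelial cadherin, lay at −2.36 and −4.08 in prominin cultures, against −7.58 in a control at 108 h, and at −3.93 and −5.26 in prominin cultures, against −5.62 and −3.40 in controls at 24 h. Its mean of −4.60 ± 1.71 (SD, n = 7) was the lowest of the 10, and the mean against the embryo reference was −6.25 ± 1.503. Of its values 0 were ratios of small whole numbers. Cldn5, the claudin of brain vessels, lay at −3.87 and −2.63 in prominin cultures, against −1.46, −6.43 and −2.24 in controls at 108 h, and at −2.50 and −1.28 in prominin cultures, against −3.69 and −3.68 in controls at 24 h. All 9 were below the median probe, with a mean over the groups of −3.05 (SE 0.51, limma adjusted p = 0.00118), 8.28-fold below the median probe. Pecam1, an adhesion molecule of endothelium, platelets and leukocytes, lay at −2.10 in a prominin culture, against −2.97, −5.02 and −3.49 in controls at 108 h, and at −1.18 in a prominin culture, against −0.28, −3.62 and −0.93 in controls at 24 h. The 4 missing Pecam1 values all belonged to prominin cultures (2 of 3 arrays at each time), and control cultures were measured on 6 of 6 arrays. Tie1 had the opposite pattern, with its 4 missing values in control cultures (2 of 3 arrays at each time) and prominin cultures measured on 6 of 6. Both genes were picked after their missing values were seen, and the share of all probes with such patterns was not counted. Over all 10 members exact zeros were 8 of 30 values in prominin and 7 of 30 in control cultures at 108 h. At 24 h they were 9 of 30 in each.

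Esam, an immunoglobulin-like adhesion molecule of endothelium and platelets, lay at −2.93, −3.04 and −2.48 in prominin cultures, against −7.14 and −2.55 in controls at 108 h, and at −1.79, 0.62 and −1.54 in prominin cultures, against 1.46, −2.94 and −0.96 in controls at 24 h. The mean over the groups was −2.35 (SE 0.50, limma adjusted p = 0.00257), and the 2 values above the median probe were both from 24 h arrays. Emcn lay at −2.56 and −5.15 in prominin cultures, against 1.63, −3.18 and −4.12 in controls at 108 h, and at −1.43, −2.18 and −1.55 in prominin cultures, against −0.13 and −3.80 in controls at 24 h. Its mean over the groups was −2.36 (SE 0.61, limma adjusted p = 0.00876), with 1 of 10 values, control 108 h replicate 1, above the median probe. Eng, the endoglin co-receptor for TGF-beta family ligands, lay at −2.28, −2.96 and −2.24 in prominin cultures, against −4.33, −5.42 and −2.28 in controls at 108 h, and at −3.71 and −4.20 in prominin cultures, against −1.57 in a control at 24 h. All 9 Eng values were below the median probe (mean −3.22 ± 1.26, SD), and 0 of them were ratios of small whole numbers.

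In the level test 5 members had 2 or more values in each group, and 4 of the 5 were lower than the median probe (Kdr, Cldn5, Esam and Emcn) and 0 were higher. Over all 9155 probes tested 25.5% were called lower and 30.4% higher, and the median was 0.23, against −2.36 for the 5 members. The fit was limma's, with Benjamini-Hochberg adjustment over all probes. With 1 value in every group as the requirement, 9 members were tested and 7 were lower, against 16.7% of 15907 probes. Cdh5 was then at −4.98 (limma adjusted p = 0.000345), Eng at −3.01 (0.000621) and Pecam1 at −2.18 (0.0166), while Tie1 was higher than the median probe at 2.03 (limma adjusted p = 0.0237). Over all 15907 probes 7113 were called in either direction, and the median was 0.69. Tie1 had 1 value in each control group, and its deposited mean, before centring, was 0.0048. Its call is thus against array medians that were all below 0. Without centring, which tests the deposited ratios against 0, the same count of 4 of 5 was called, and Flt1 turned to −0.73. In that setting 6214 of 9155 probes were called in either direction, against 5113 with centring.

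Other genes of vessels did not share 1 direction. Of 36 further endothelial genes 33 were on the array and 14 were tested. Lower than the median probe were 6, higher 4, and 4 neither, with a median of −0.87. Plvap, a protein of vessel wall diaphragms, lay at −4.66 (SE 0.38, limma adjusted p = 3.71e-05; −2.53 and not called with both codes kept) and Ramp2, a subunit of the adrenomedullin receptor, at −3.94 (SE 0.47, 9.5e-05 by limma). In the other direction, S1pr1, a sphingosine-1-phosphate receptor also found on astrocytes and neural progenitors, lay at 4.62 (SE 0.37, limma adjusted p = 1.56e-06) and Clec14a, a lectin of endothelial cells, at 2.45 (SE 0.21, 3.13e-06 by limma). Both were above the median probe on 12 of 12 arrays.

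Of the blood-brain barrier list 14 of 16 genes were on the array and 8 were tested, with 3 lower, 2 higher and a median of 0.43. The efflux pump gene Abcb1a lay at −1.57 (−0.98 and not called with both codes kept), the transferrin receptor gene Tfrc at −1.46 and the Wnt effector gene Lef1 at −1.85, whereas Tjp1, a junction scaffold of many cell types, lay at 2.38. Among vascular ligands and co-receptors 8 were tested, with 3 lower and 1 higher and a median of −0.93. The growth factor gene Vegfb lay at −1.74, the semaphorin and VEGF co-receptor gene Nrp2 at −2.98 and the venous ephrin receptor gene Ephb4 at −2.61 on the probe with the smaller p of 2, and the axon guidance gene Sema3a lay at 2.04 (0.44 and not called without centring). Ephb4 was at −0.83 with its probes averaged, and at −1.70 and not called with both codes kept. Mural cells, which wrap vessels, gave 3 lower and 0 higher of 6 tested, with a median of −1.91. Smooth muscle actin (Acta2) lay at −3.86 and below the median probe on 12 of 12 arrays, Mcam at −3.49 and Notch3 at −3.36 (−2.11 and not called with both codes kept). The pericyte gene Rgs5 lay at −0.46 (limma adjusted p = 0.311), and at −2.07 and called lower without centring, against the embryo reference itself.

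Genes of other cells give the range in which these levels stand. The erythroid, fibroblast and neural stem lists were used to choose the direction of the ratio. Which way those lists lie is therefore no separate result. Erythroid genes were all lower (5 of 5 tested, median −4.93; Hbb-y −6.88, Hba-x −5.67, Klf1 −4.93, Hba-a1 −3.25), and so were fibroblast and meningeal genes (8 of 8, median −5.01; Col1a1 −6.20, Twist1 −5.20, Col3a1 −4.81, Fbln1 −4.59). Neural stem and radial glia genes had 8 higher and 4 lower of 15 tested, with a median of 2.39 (Slc1a3 5.68, Sox2 3.82, Fabp7 3.66, Vim 2.76). The 4 lower ones were Id3 (−3.27), Hes1 (−1.66), Ccnd2 (−1.23) and Id1 (−1.16). Genes of blood cells and platelets, which some endothelial members share, were mixed: 1 lower, 2 higher and 4 neither of 7 tested, with a median of −0.28. The stem cell factor receptor gene Kit lay at −3.01 and the adhesion gene Cd44, also made by neural cells, at 4.71. The leukocyte gene Ptprc lay at 1.71, but was not called without centring (0.16) or centred on all measured probes (1.23, limma adjusted p = 0.058). Runx1 lay at 0.88 (limma adjusted p = 0.17), or 1.32 and called higher without control 108 h replicate 1. The median of the 5 tested endothelial members lay between those of the mural and the erythroid lists. No test of 1 list against another was made.

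**Figure D2:**
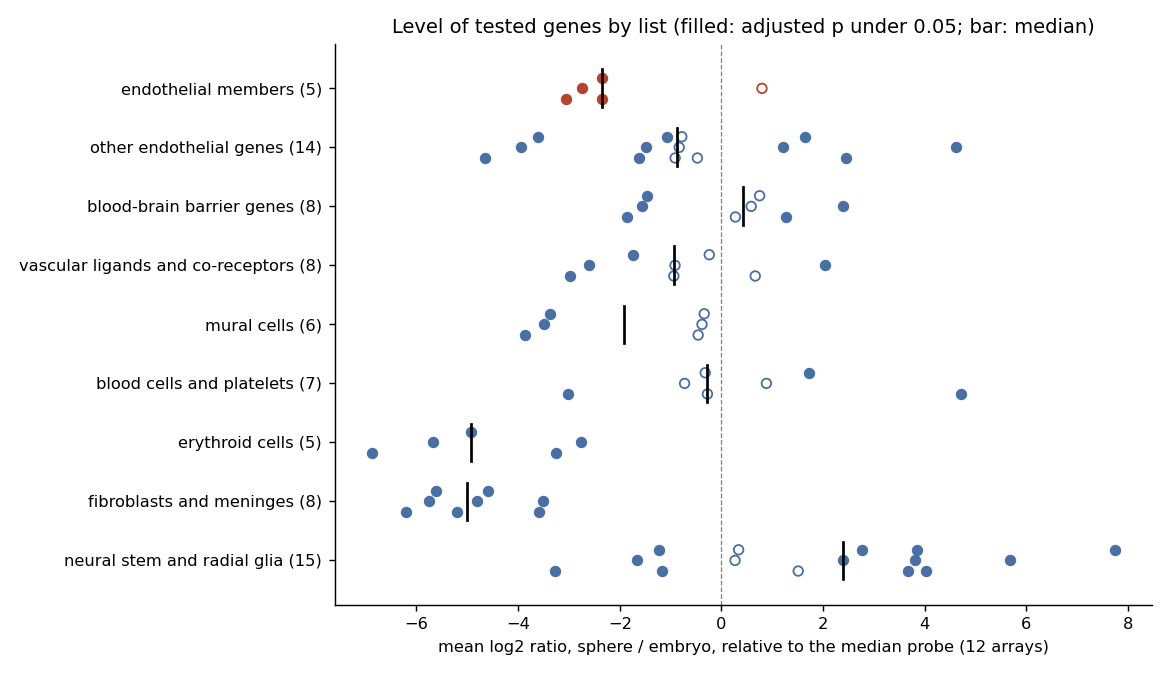
Each point is 1 tested gene, placed by its mean log2 ratio of sphere to embryo RNA over the 4 groups, relative to the median probe (dashed line), with 1 row per gene list and the number tested in brackets. Filled points passed limma's test at an adjusted p under 0.05, open points did not, and bars are list medians (−2.36 for the 5 endothelial members, −5.01 for fibroblasts and meninges, 2.39 for neural stem and radial glia).

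Prominin and control cultures were compared at each time, to ask whether the transduced cultures held more or less endothelial RNA. At 108 h 0 of 5 members were called, against 0% of 9155 probes (624 had an unadjusted p under 0.05, none of them a member). Esam was at 2.03 (SE 1.49, 95% interval −1.26 to 5.33, limma adjusted p = 0.813) and Emcn at −1.97 (SE 1.71, −5.82 to 1.88, limma adjusted p = 0.854). Kdr was at 0.06 (SE 0.91, −1.93 to 2.05), Cldn5 at 0.13 (SE 1.39, −3.04 to 3.30) and Flt1 at −1.10 (SE 2.45, −6.60 to 4.40). For Kdr, means of −3.04 ± 1.88 in prominin cultures, against −3.11 ± 0.52 in controls (SD, n = 3 each) gave an exact two-sided permutation p of 0.9. Eng, which was not in the fit, averaged −2.49 ± 0.40 in prominin cultures, against −4.01 ± 1.591 in controls (exact two-sided permutation p = 0.2, where 0.1 is the smallest that 20 arrangements allow).

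At 24 h 0 of 5 members were called, again against 0% of 9155 probes (419 had an unadjusted p under 0.05, none of them a member). Cldn5 was at 1.80 (SE 1.52, 95% interval −1.67 to 5.28, limma adjusted p = 0.998) and Flt1 at −1.55 (SE 2.45, −7.05 to 3.95, limma adjusted p = 0.999). Kdr was at −0.31 (SE 0.91, −2.29 to 1.68), Esam at −0.09 (SE 1.33, −3.03 to 2.86) and Emcn at 0.24 (SE 1.71, −3.60 to 4.09). Over both times together the differences lay between −1.32 (Flt1) and 0.97 (Esam), with limma adjusted p from 0.96 to 0.995, and 0% of probes were called. For Kdr that comparison of 6 against 6 arrays gave an exact two-sided permutation p of 0.857. The intervals of the 5 members reach past 1 on the log2 scale in both directions at each time, so differences of 2-fold were not detectable here. The change of the prominin difference from 24 h to 108 h was between −2.21 (Emcn) and 2.12 (Esam), with limma adjusted p from 0.893 to 0.988 and 0% of probes called.

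Culture time was compared to ask whether endothelial RNA was lower after longer culture. Over both cultures 0 of 5 members passed, against 0.0546% of 9155 probes. All 5 estimates lay below 0, with a median of −0.66 against −0.03 over all tested probes. The one nearest to 0, Flt1 at −0.01, had 51.3% of tested probes below it and turned sign in 5 of 18 alternatives. Esam, the member with the smallest p, averaged −3.63 ± 1.98 at 108 h (SD, n = 5) and −0.86 ± 1.63 at 24 h (n = 6), a difference of −2.97 in the fit (SE 1.00, 95% interval −5.18 to −0.76, unadjusted p = 0.0132, limma adjusted p = 0.35, and 0.278 to 0.809 over its alternatives). In prominin cultures its 3 values at 108 h were all below its 3 values at 24 h (exact two-sided permutation p = 0.1, the smallest possible). The fit gave −1.91 there (SE 1.33, 95% interval −4.86 to 1.03, limma adjusted p = 0.723). In controls the values of the 2 times overlapped, but the fitted difference was larger (−4.03, SE 1.49, 95% interval −7.33 to −0.74, limma unadjusted p = 0.0211, adjusted p = 0.629). Of its 24 h values 3 of 6 were ratios of small whole numbers, and of its 108 h values 0 of 5. The part of such ratios in the time difference was not tested. With such ratios left out of all arrays Esam could not be fitted.

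Kdr averaged −3.07 ± 1.23 at 108 h and −2.41 ± 0.78 at 24 h (SD, n = 6 each), a difference of −0.66 (SE 0.64, limma adjusted p = 0.794, exact two-sided permutation p = 0.299). Emcn was at −1.03 (SE 1.21), Cldn5 at −0.53 (SE 1.03) and Flt1 at −0.01 (SE 1.73), with limma adjusted p from 0.844 to 0.998. Within controls 0 of 5 members passed (0% of probes) and within prominin cultures 0 of 5 (0.0218% of probes). The 12 exact tests of members measured on all arrays of both sides gave 0.6 as the lowest p after adjustment over the 12. Members were measured on 22 of 30 values in prominin cultures and 23 of 30 in controls at 108 h, and on 21 of 30 in each at 24 h (73.3%, 76.7%, 70% and 70%). Over all probes the shares were 74.7%, 75.9%, 61.7% and 60% in the same groups.

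**Figure D3:**
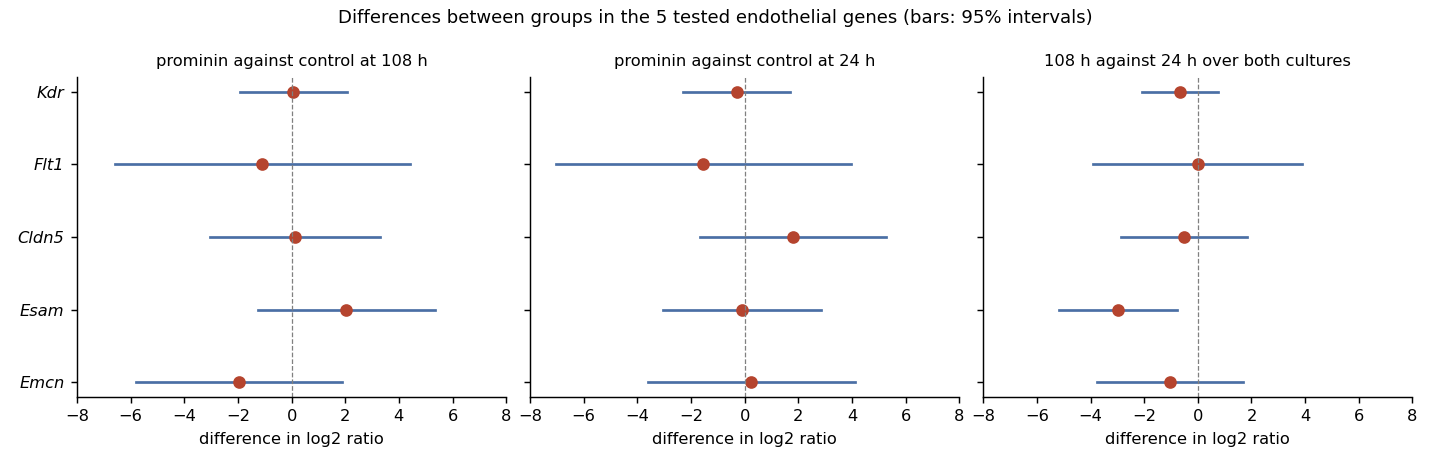
Estimated differences in log2 ratio are shown for the 5 tested endothelial genes in 3 comparisons, with 95% intervals from limma as bars and no difference as a dashed line. The interval of Esam between 108 h and 24 h (−5.18 to −0.76) leaves out 0 before adjustment over all probes, and the other 14 intervals include it.

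Of 36 other vascular and mural genes tested, 0 passed in any of the 7 comparisons between groups. With time over both cultures the smallest p among them belonged to Slco1c1, a thyroid hormone transporter of brain vessels and astrocytes (−3.22, SE 0.81, limma adjusted p = 0.263), Sema3a (−1.69, SE 0.47, 0.272 by limma) and Gja4, the connexin of arterial endothelium (−3.10, SE 0.84, 0.272 by limma). Slco1c1 averaged 0.51 in prominin cultures, against −1.19 in controls at 108 h, and 2.42 in prominin cultures, against 3.33 in controls at 24 h. Gja4 averaged −1.96 in prominin cultures, against −2.70 in controls at 108 h, and 0.13 in prominin cultures, against 1.41 in controls at 24 h. Ratios of small whole numbers were 4 of 10 values each for Slco1c1 and Gja4, and 0 of 12 for Sema3a. The part of such ratios in these time differences was not tested. At 24 h the ETS factor gene Erg had the smallest p of prominin against control (−4.45, SE 1.34, limma adjusted p = 0.998), with means of −3.47 in prominin cultures, against 0.98 in controls. Lef1 had it at 108 h (2.25, SE 1.03, limma adjusted p = 0.725), with means of −0.96 in prominin cultures, against −3.21 in controls.

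Since Kdr alone had a value on every array, its profile over the 12 arrays was used to find the most similar among 3944 named probes measured on all of them. The 5 closest by Pearson correlation were Arvcf, a catenin-like protein that binds cadherins (0.885), the transcription factor gene Tcf4 (0.848), Coa4 (0.834), Sertad3 (0.799) and the splicing factor gene Srsf9 (0.793). Without the 2 arrays farthest from the median of Kdr, prominin 108 h replicate 3 and prominin 24 h replicate 2, these were 0.82, 0.605, 0.804, 0.754 and 0.675 over 10 arrays. Spearman's rho over 12 arrays was 0.776, 0.797, 0.811, 0.685 and 0.825. The arrays share the reference RNA and the centring, and these are the highest of many correlations, given as a description.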

How the data were processed

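The authors deposited 1 value table of 12 two-colour arrays, with 21738 probes. Its values are log2 ratios as deposited, read from the values since the labels do not state the scale. Per the labels' protocols, sphere RNA was labelled with Cy5 and whole-embryo RNA with Cy3 by dendrimers. How spots were read and scaled is not given in the sources used here, and ratios carry no depth, so the number of arrays limits precision.

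Exact 0 and the top code were set to missing, and from each array the median of 4532 probes measured throughout was subtracted. The 9155 probes with 2 or more values in each group were fitted by limma (version 3.58.1, R version 4.3.3) with group means, 7 contrasts between groups and the mean of all groups, at a Benjamini-Hochberg adjusted p under 0.05. The procedure was tested on simulated data. Genes were named from the probe annotation, updated through RefSeq gene identifiers: 16620 probes had 1 symbol. A gene with several probes is given by the one with the smallest p in the level test.

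All 10 members are named, with up to 4 genes of each of the 8 other lists by smallest p in the level test, and otherwise up to 3 vascular genes by smallest p in a comparison. Members and lists were chosen with earlier results of these data known. Correlations between arrays were 0.604 to 0.783 within groups. Same-numbered prominin and control arrays deviated from their group means with correlations of 0.024 to 0.122, so numbers were not taken to pair samples. The alternatives were other scalings, codes kept, whole-number ratios removed, other filters, probes averaged to genes, a replicate block, no variance moderation, array weights and leaving out each array.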

Additional observations from a re-analysis of the deposited data

How the results depend on the processing

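No member was called in any comparison between groups under any of the 24 alternatives (0 in each, the replicate block included), so those directions are not established. The level count of 4 was also 4 with the replicate block, and became 8 with 1 value per group (9 members tested, 7 lower and Tie1 higher), 6 with zeros kept (10 tested, 5 lower and Tie1 higher), 4 with both codes kept (10 tested, 3 lower and Tie1 higher), 2 with whole-number ratios removed (2 tested) and 1 with 3 values per group (1 tested). Over all probes, calls in either direction were 5113 of 9155 in the main fit and 5039 of 9146 with the replicate block. They were 7113 of 15907 with 1 value per group, 14331 of 20770 with zeros kept and 9895 of 21738 with both codes kept. With whole-number ratios removed they were 3552 of 5500, and with 3 values per group 2797 of 4532. Leaving out 1 array gave 2 to 4, with 2 without prominin 108 h replicate 2 or replicate 3 (2 tested each) or control 24 h replicate 3 (3 tested). Over all probes those 3 settings called 4332 of 7931, 4435 of 7972 and 3727 of 6763 in the same order. Cldn5 (−1.85, highest limma adjusted p over its alternatives 0.0686) and Emcn (−1.49, highest 0.119) lost their level call with both codes kept, as did Plvap, Abcb1a, Ephb4 and Notch3, and Emcn (−1.49) also with the zeros kept. The median member level was −3.75 without centring and −1.11 with the zeros kept, against −2.15. Signs turned as follows, none called. Without centring: Kdr 0.37 and Esam 0.59 at 24 h, Kdr −1.01 and Cldn5 −0.77 at 108 h, and in level Flt1 −0.73 and Runx1 −0.69. Centred on all measured probes: Kdr 0.024 and Esam 0.24 at 24 h. Quantile normalized: Kdr 0.12 and Esam 0.051 at 24 h, Kdr −0.00947 at 108 h. With zeros kept, with or without the top code: Emcn −1.08 at 24 h and 0.18 at 108 h, Flt1 0.16 with time. With array weights: Esam 0.31 at 24 h, Cldn5 −0.42 at 108 h, Flt1 0.41 with time. Leaving out 1 array gave Kdr −0.79 to 0.27 and Esam −1.15 to 1.05 at 24 h, Kdr −0.708 to 1.11 and Cldn5 −1.40 to 1.08 at 108 h, and Flt1 −0.37 to 0.62 and Cldn5 −1.004 to 0.24 with time. The cause was not tested, except that the level counts differ with the members tested. Dim spots at 24 h and missing values limit all time comparisons.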

Other observations

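Of the other endothelial genes 19 were on the array with too few values for the fit. More of the values lay above the median probe in 11 of them and below it in 8. Every value lay below it in 5 and above it in 1, and the genes named here were chosen after their values were seen. Cd34, a sialomucin of endothelium and blood progenitors, was below the median probe on all 7 arrays that measured it (−5.78 to −2.20), as were the adhesion gene Icam2 (−4.79 to −1.54), the endothelial transcription factor gene Sox18 (−4.68 to −0.72) and the thrombomodulin gene Thbd (−4.30 to −1.54), on 7 arrays each. Of the mural genes 7 were on the array with too few values for the fit. More of the values lay below the median probe in 5 of them and above it in 1, and in 1 the sides were equal. The muscle filament gene Des, also made by pericytes, lay at −6.14 to −2.03 on 5 arrays, and the mural gene Cnn1 at 2.43 to 3.86 on 3. Vwf, the clotting factor of endothelium and platelets, had 4 values on 1 of its 2 probes, all above the median probe (0.47 to 3.96). The arterial connexin gene Gja5 was above it on 6 of 7 arrays, the selectin gene Sele and the apelin receptor gene Aplnr on 5 of 6 each, the transcription factor gene Sox17 on 4 of 5, and Selp, Edn1 and Prox1 on 3 of 4 each. Ratios of small whole numbers were 3 of 7 values for Gja5, 2 of 6 each for Sele and Aplnr and 2 of 5 for Sox17. They were 3 of 4 for Edn1, 2 of 4 for Selp, 1 of 4 for Vwf and 0 of 4 for Prox1. For Cd34, Icam2, Sox18 and Thbd they were 0 of 7 each. All array medians were below 0, so a deposited ratio near 0 lies above the median probe.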
